A study of Mus musculus with 9 samples.

Results

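The nuclear genes for the mitochondrial respiratory chain and ATP synthase were described in 3 dendritic cell subsets sorted from mouse spleen. The set was made of every gene whose symbol begins with Nduf followed by a, b, c, s or v, with Cox4 to Cox8, with Uqcr or with Atp5, together with Sdha, Sdhb, Sdhc and Sdhd, and with Cox6a2 left out. By this rule 86 of the 14862 genes in the deposited table were members. They were 35 subunits of complex I, 4 of complex II, 8 of complex III, 13 of complex IV (Ndufa4 is counted there), 15 of ATP synthase, and 11 genes that share the symbols but serve assembly or accessory roles. The libraries were 3 each of type 1 conventional dendritic cells (cDC1), type 2 conventional dendritic cells (cDC2) and a subset labelled mcDC, which the labels do not expand. All groups came from spleens of C57Bl/6 mice aged 8 to 12 weeks with no treatment named, and which surface proteins defined the sort was not given in the sources used here. Nothing in the labels ties the libraries to separate animals, so p-values here reflect library-to-library spread that may be technical.

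Complex I takes electrons from NADH and complex II takes them from succinate, both passing them to ubiquinone. Complex III moves them on to cytochrome c and complex IV to oxygen, while complexes I, III and IV pump protons across the inner mitochondrial membrane and ATP synthase uses the gradient to make ATP. Most subunits are encoded in the nucleus and imported, and the transcription factors NRF1, GABP (an ETS family member) and YY1 are known for binding near the start sites of many of their genes. In dendritic cells, oxidative metabolism is known to give way to glycolysis upon activation. The genes encoded in mitochondrial DNA were not analysed here.

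The promoters of the members were searched for short motifs, none of which was in most of their windows. RefSeq windows of 300 bases, running from 250 bases before to 50 after the start site in build GRCm38.p6, were matched for 74 of the 86 members, giving 80 windows. The motif GCATGCGC, a core of the NRF1 site, was in 15% of the members' windows, in 5.23% of the windows of all genes tested and in 2.71% of all windows. The full palindrome, in which GC stands before these letters, was in 8.75%, 2.06% and 0.971% of the windows in the same order. The YY1-type motif AAGATGGCG was in 12.5%, 3.10% and 1.40%. The ETS-type motif CCGGAAG was in 22.5% of the members' windows, 18% of those of genes tested and 8.86% of all windows. For CCAAT the shares were 43.8%, 38.1% and 37.4%. The motif GGGCGG, bound by SP1, was in 43.8% of the members' windows, below the 61.1% of genes tested and above the 35.7% of all windows. Both strands were searched, and a match describes the letters only.

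The 250 bases before the start site are shown for a gene that holds most of these motifs, for a complex II gene, and for the 3 members on which the results below turn. Each is printed 5′ to 3′ on the strand of the gene, and capitals mark a searched motif or its reverse complement. The windows are Cox6a1 at chr5:115348959-115349208 on the minus strand, Sdhb at chr4:140961021-140961270 on the plus strand, Atp5sl (named Dmac2 in RefSeq, one of its 2 windows) at chr7:25619164-25619413 on the plus strand, Ndufaf7 at chr17:78936885-78937134 on the plus strand, and Atp5g1 at chr11:96075632-96075881 on the minus strand.
Cox6a1: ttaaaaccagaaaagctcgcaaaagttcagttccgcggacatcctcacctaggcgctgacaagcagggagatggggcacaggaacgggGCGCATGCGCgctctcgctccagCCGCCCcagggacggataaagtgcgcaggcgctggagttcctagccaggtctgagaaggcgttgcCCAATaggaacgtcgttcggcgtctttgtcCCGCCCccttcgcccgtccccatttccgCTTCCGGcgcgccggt
Sdhb: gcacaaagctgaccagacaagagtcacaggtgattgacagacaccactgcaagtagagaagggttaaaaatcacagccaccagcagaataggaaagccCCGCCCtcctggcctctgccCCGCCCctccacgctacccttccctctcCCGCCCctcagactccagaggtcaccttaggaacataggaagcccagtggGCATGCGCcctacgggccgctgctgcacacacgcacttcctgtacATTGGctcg
Atp5sl: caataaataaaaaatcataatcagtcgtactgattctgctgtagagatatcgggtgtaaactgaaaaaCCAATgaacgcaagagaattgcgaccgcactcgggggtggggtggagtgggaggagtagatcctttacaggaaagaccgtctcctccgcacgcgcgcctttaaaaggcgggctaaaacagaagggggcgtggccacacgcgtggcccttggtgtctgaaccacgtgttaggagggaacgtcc
Ndufaf7: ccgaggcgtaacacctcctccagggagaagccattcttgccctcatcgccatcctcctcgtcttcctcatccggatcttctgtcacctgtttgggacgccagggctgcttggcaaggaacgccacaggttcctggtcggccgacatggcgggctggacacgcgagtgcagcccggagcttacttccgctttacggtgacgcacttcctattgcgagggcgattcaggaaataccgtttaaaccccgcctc
Atp5g1: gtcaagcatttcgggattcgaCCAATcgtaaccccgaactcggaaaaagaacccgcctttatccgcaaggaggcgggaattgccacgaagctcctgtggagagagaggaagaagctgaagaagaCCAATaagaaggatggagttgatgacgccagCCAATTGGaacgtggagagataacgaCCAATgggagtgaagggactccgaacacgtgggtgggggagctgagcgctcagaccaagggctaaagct
In Cox6a1 the NRF1 palindrome began 162 bases before the start site and the ETS-type motif 16 bases before it. In Sdhb the NRF1-type motif began 54 bases before the start site. Atp5g1 held CCAAT or its complement at 5 places, 2 of which overlap, Atp5sl held it at 1, and none of the searched motifs lay in the stretch shown for Ndufaf7. The windows also held motifs not wholly within the stretch shown, CCGGAAG in Sdhb, AAGATGGCG in Atp5sl and GGGCGG in Ndufaf7.

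The cDC1 libraries held 9.68 to 11.01 M reads, those of cDC2 9.19 to 12.43 M and those of mcDC 5.14 to 8.22 M. A single read in 1 kb of gene then equalled 0.0805 to 0.195 RPKM (reads per kilobase of gene and per 1 M reads). Of 10 cDC1 markers, 9 were called higher in cDC1 than in cDC2 and 0 lower, and of 10 cDC2 markers 9 were called lower and 0 higher. The summed RPKM of the cDC1 markers was 2487 to 3199 in cDC1, 278 to 438 in cDC2 and 665 to 1547 in mcDC, and that of the cDC2 markers was 79.5 to 257, 1058 to 1239 and 538 to 766. The replicate 3 library of mcDC stood apart, with 12.3% of genes at 0 against 2.71% to 6.47% in the others. In bulk samples such as these, fewer cells of a type and less RNA per cell cannot be told apart.

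All 86 members passed the filter of more than 1 RPKM in at least 2 libraries, and as a set they were abundant. The median of their mean levels was 57.7 RPKM, against 10.6 RPKM for the 11971 genes tested, and 74 of 86 were above 10 RPKM in every library. A mean above 100 RPKM was reached by 24 members and by 601 of all genes tested. How the authors' counting treated strand and reads shared with near-identical copies, which several of these genes have as processed pseudogenes, was not given in the sources used here.

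**Figure D1:**
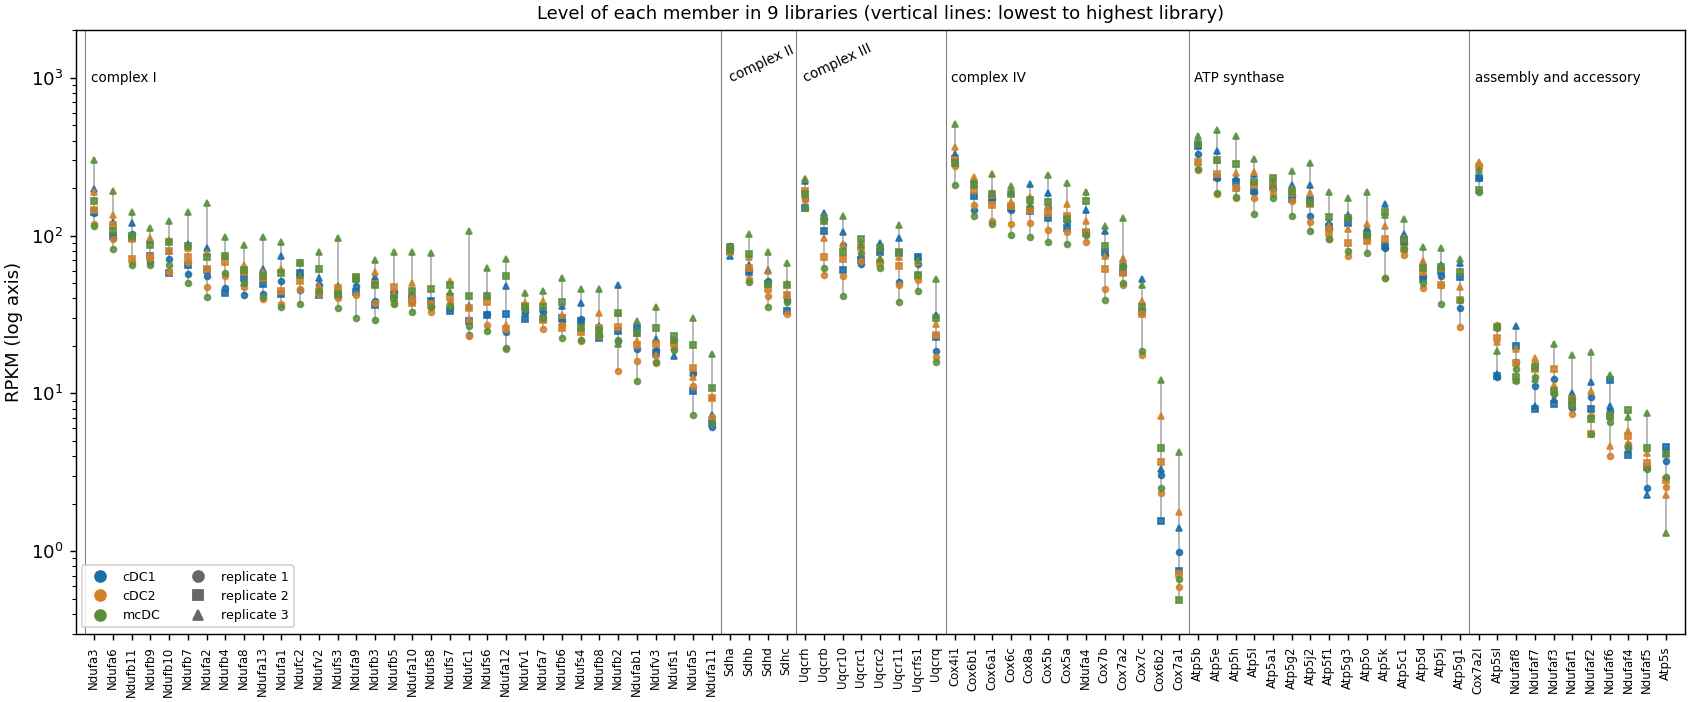
RPKM of 85 of the 86 members on a log axis, grouped by complex and ordered by mean level, with 1 point for each of the 9 libraries and a vertical line from the lowest to the highest. Atp5b at a mean of 333 RPKM and Cox4i1 at 320 RPKM stood highest, Cox7a1 at 1.29 RPKM lowest, and the replicate 3 library of mcDC was the highest point for 65 of 86 members.

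Within ATP synthase, Atp5b, the catalytic beta subunit, had the highest mean of all members, 333 RPKM. Its levels were 327, 369 and 383 RPKM in cDC1, 259, 292 and 291 RPKM in cDC2, and 263, 381 and 430 RPKM in mcDC, each in the order of replicates 1 to 3. The cDC1 libraries lay above all cDC2 libraries, and the mcDC libraries spread across both. The difference of cDC1 from cDC2 in log2(RPKM + 1) was 0.36 ± 0.18 (SE) with an adjusted p of 0.230 in limma. The Atp5b difference passed the threshold under quantile normalization, at 0.0449, and with cDC1 and cDC2 fitted alone, at 0.0345. A fit blocked by title run gave 0.0609, and 0.0207 when mcDC replicate 3 was dropped from it. The blocked fit gave 0.0387 with median-of-ratios scaling and 0.0111 with the trend on gene length removed. In complex IV the highest was Cox4i1, the ubiquitous form of subunit 4, at 289, 306 and 328 RPKM in cDC1, 278, 302 and 367 RPKM in cDC2, and 210, 290 and 507 RPKM in mcDC. The mcDC libraries held both the lowest and the highest value. Uqcrh, the hinge subunit of complex III, averaged 188 RPKM over the 9 libraries, and Ndufa3, an accessory subunit of complex I, averaged 168 RPKM.

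Complex II, the smallest, had the narrowest range of levels among its genes. Sdha, the flavoprotein that oxidises succinate, had 86.3, 79.2 and 73.8 RPKM in cDC1, 83.5, 81.1 and 79.2 RPKM in cDC2, and 80.4, 85.1 and 80.8 RPKM in mcDC. These 9 values lay within 73.8 to 86.3 RPKM with no order among the subsets. The 95% intervals of the Sdha differences were -0.18 to 0.27 for mcDC minus cDC1, -0.21 to 0.24 for mcDC minus cDC2 and -0.25 to 0.19 for cDC1 minus cDC2, on the log2(RPKM + 1) scale. Sdhb, the iron-sulfur subunit, had means of 61.2 ± 3.17, 62.8 ± 9.77 and 76.7 ± 25.9 RPKM in cDC1, cDC2 and mcDC (SD, n = 3). The membrane anchors Sdhc, at 38.3, 41.4 and 51.3 RPKM, and Sdhd, at 53.4, 48.8 and 54.4 RPKM, gave overlapping libraries in the same order of subsets.

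The tissue-specific isoforms were low beside the ubiquitous ones. Cox6b2, known from testis, averaged 4.48 RPKM against 188 RPKM for Cox6b1. Cox7a1, known from heart and skeletal muscle, averaged 1.29 RPKM against 68.0 RPKM for Cox7a2. Cox6a1 and Cox8a, the forms found in most tissues, averaged 170 and 153 RPKM, and Ndufa4 averaged 126 RPKM. Cox4i2, Cox8b, Cox8c and Ndufa4l2 were not analysed here.

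The c subunit of the ATP synthase ring is one protein encoded by 3 genes, of which Atp5g2 and Atp5g3 had shares set apart in cDC2. Of the summed RPKM of the 3 genes, Atp5g2 made up 51.8%, 49.3% and 50.9% in the cDC1 libraries. Its share was 62.2%, 59.1% and 55.8% in the cDC2 libraries and 52.9%, 50.1% and 51.3% in the mcDC libraries. All cDC2 libraries were above all libraries of the other subsets. The means were 50.7% ± 1.25, 59.1% ± 3.22 and 51.4% ± 1.40 (SD, n = 3), given here as a description with no test. Atp5g3 made up 35.2% ± 2.59 in cDC1, 29.1% ± 1.64 in cDC2 and 33.5% ± 1.56 in mcDC, and Atp5g1 the remaining 14.1% ± 3.40, 11.9% ± 1.74 and 15.1% ± 0.832. The highest cDC2 share of Atp5g3, 30.9%, was below the lowest of the other subsets, 31.7% in mcDC replicate 1. The Atp5g1 shares overlapped, with 10.2% in cDC1 replicate 1 and 13.3% in cDC2 replicate 3. The Atp5g2 level itself was close in the subsets, at 186 ± 21.1, 183 ± 16.6 and 193 ± 62.0 RPKM.

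Averaged over the 75 subunits, log2(RPKM + 1) of cDC1 replicates 1 to 3 was 5.86, 5.87 and 6.18. For cDC2 it was 5.64, 5.91 and 6.12, and for mcDC 5.56, 6.13 and 6.61. The subsets overlapped, and the mcDC libraries were both the lowest and the highest of the 9. The libraries of mcDC minus cDC1 differed by -0.30, 0.26 and 0.44 within runs 1, 2 and 3 of consecutive library titles, each of which holds 1 library of each subset. For mcDC minus cDC2 the within-run values were -0.08, 0.22 and 0.49, and for cDC1 minus cDC2 they were 0.22, -0.04 and 0.06. The sign of the mean over the 75 subunits thus changed between runs in every comparison. For cDC1 minus cDC2 the within-run differences were all positive in complex III, at 0.32, 0.07 and 0.18, and in ATP synthase, at 0.28, 0.11 and 0.14, given with no test. Every complex gave libraries that overlapped between subsets in every comparison, and the within-run differences of mcDC from cDC1 were negative in run 1 and positive in runs 2 and 3 for each of the 5 complexes.

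**Figure D2:**
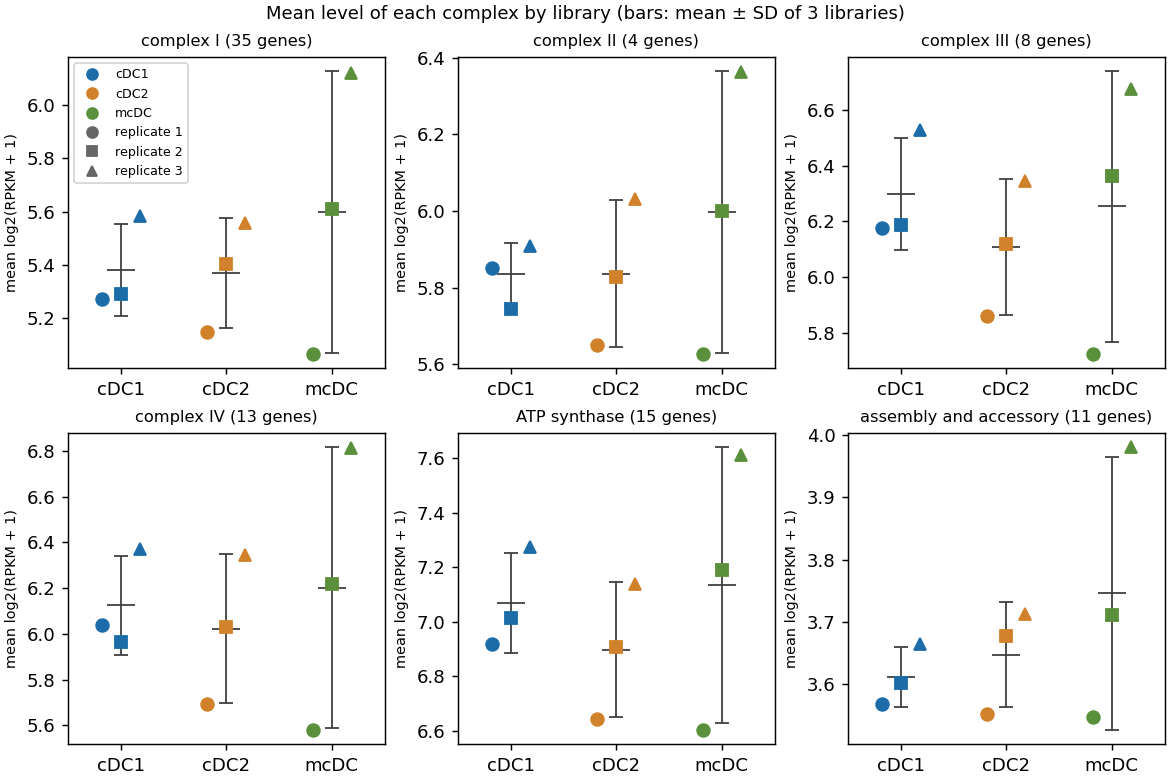
Mean log2(RPKM + 1) over the genes of each complex in every library, with colour for the subset, symbol for the replicate, and a bar for the mean ± SD of 3 libraries. For complex I the mcDC libraries lay at 5.06, 5.61 and 6.12, enclosing all cDC1 and cDC2 libraries.

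The spread between replicates was shared by most members. Replicate 3 was the highest library of its subset for 73 of 86 members in cDC1, 72 in cDC2 and 69 in mcDC, while over all genes tested this held for 29%, 34.5% and 38.2%. Replicate 1 was the lowest for 43, 74 and 79 members in the same order, against 34.2%, 38.3% and 35.2% of all genes. The members took 1.27% of all RPKM in mcDC replicate 1 and 2.004% in mcDC replicate 3, with the other 7 libraries between 1.30% and 1.71%.

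Gene length moved with this spread. The members are short, with a median length implied by the RPKM steps of 863 bases against 2871 bases for all genes tested, and 54.7% of members but 8.66% of all genes were under 1000 bases. Among genes with a mean of at least 10 RPKM, the median of replicate 3 minus replicate 1 in mcDC was 0.91 in other genes under 600 bases, 0.43 in those of 1000 to 2000 bases and -0.44 in those over 4000 bases, in log2(RPKM + 1). The members of the first of these classes had a median of 1.26 and those of the second 0.89, both above the other genes of the same length. In cDC1 and cDC2 the other genes under 600 bases had 0.33 and 0.46 and those over 4000 bases -0.19 and -0.15, so the slope had the same direction and was smaller. The summed RPKM of the erythroid and platelet markers was also lowest in replicate 1 of every subset, at 6.99, 5.85 and 11.5 against 20.9 to 175 in the other libraries, with Klf1, Pf4, Ppbp and Itga2b among those at 0 in at least 1 library. The part of the markers in the spread was not tested.

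**Figure D3:**
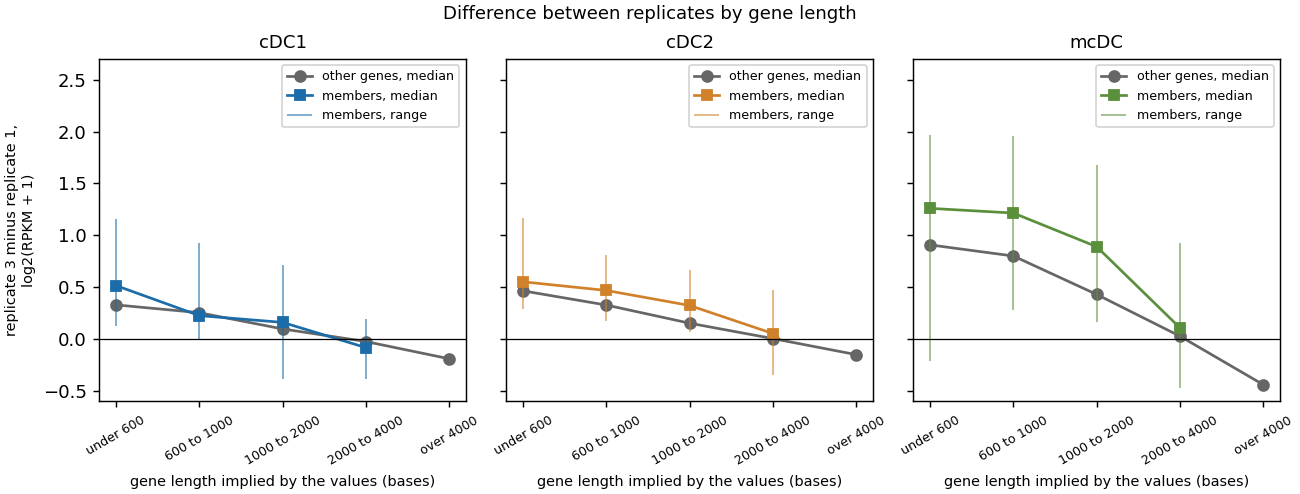
Median difference of replicate 3 from replicate 1 in log2(RPKM + 1) by gene length in bases, for members (squares, with the range as a line) and other genes (circles) with a mean of at least 10 RPKM, in each subset. In mcDC the medians of other genes ran from 0.91 under 600 bases to -0.44 over 4000 bases, and members lay above them in each class that held members.

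Of the 75 subunits, 0 were called in any of the 3 comparisons by limma at an adjusted p of 0.05 over all genes tested. At an unadjusted p under 0.05 there were 0, 0 and 1 subunits for mcDC against cDC1, mcDC against cDC2 and cDC1 against cDC2. The other 11 genes gave all the calls. For mcDC against cDC1, 1 member was higher and 0 lower, where 15.4% of all genes were called (9.53% higher, 5.88% lower). For mcDC against cDC2, 0 members were called in either direction, where 3.66% of all genes were called (2.06% higher, 1.6% lower). For cDC1 against cDC2, 0 members were higher and 2 lower, where 19.6% of all genes were called (8.85% higher, 10.7% lower). Unadjusted, 4, 2 and 4 members had a p under 0.05, beside 29%, 16.7% and 29.8% of all genes. With voom on the recovered reads limma called 1, 0 and 2 members, beside 15%, 3.67% and 22% of all genes. The 95% interval lay within a 2-fold change in either direction for 69, 64 and 67 of 86 members.

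Differences of mcDC were positive for most members and for most genes. The members' median difference was 0.14 for mcDC minus cDC1, with 60 of 86 positive (69.8%), beside 0.09 and 60% positive for all genes tested. For mcDC minus cDC2 it was 0.20, with 74 of 86 positive (86%), beside 0.06 and 57.9%. For cDC1 minus cDC2 it was 0.06, with 51 positive (59.3%), beside -0.02 and 47.4%. Scaling by median of ratios moved the median of all genes to -0.03, -0.04 and 0.00 that of the members to 0.0038, 0.09 and 0.09 with 43, 56 and 57 positive, and the share of calls that were higher from 61.8% to 46.5% for mcDC against cDC1 and from 56.4% to 42.8% for mcDC against cDC2. Without mcDC replicate 3 the members' medians for mcDC were -0.11 against cDC1 and -0.05 against cDC2, and without mcDC replicate 1 they were 0.39 and 0.48. Libraries of mcDC and cDC1 did not overlap for 5 members, 4 higher and 1 lower, where this held for 30.5% of all genes (19.5% higher, 11% lower). Between mcDC and cDC2 they did not overlap for 1 member, which was lower, beside 21.6% of all genes (13.9% higher, 7.7% lower). Between cDC1 and cDC2 the count was 15 members, 9 higher and 6 lower, beside 46.1% of all genes (21.5% higher, 24.6% lower). The 3 comparisons share their libraries and are not independent of each other.

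**Figure D4:**
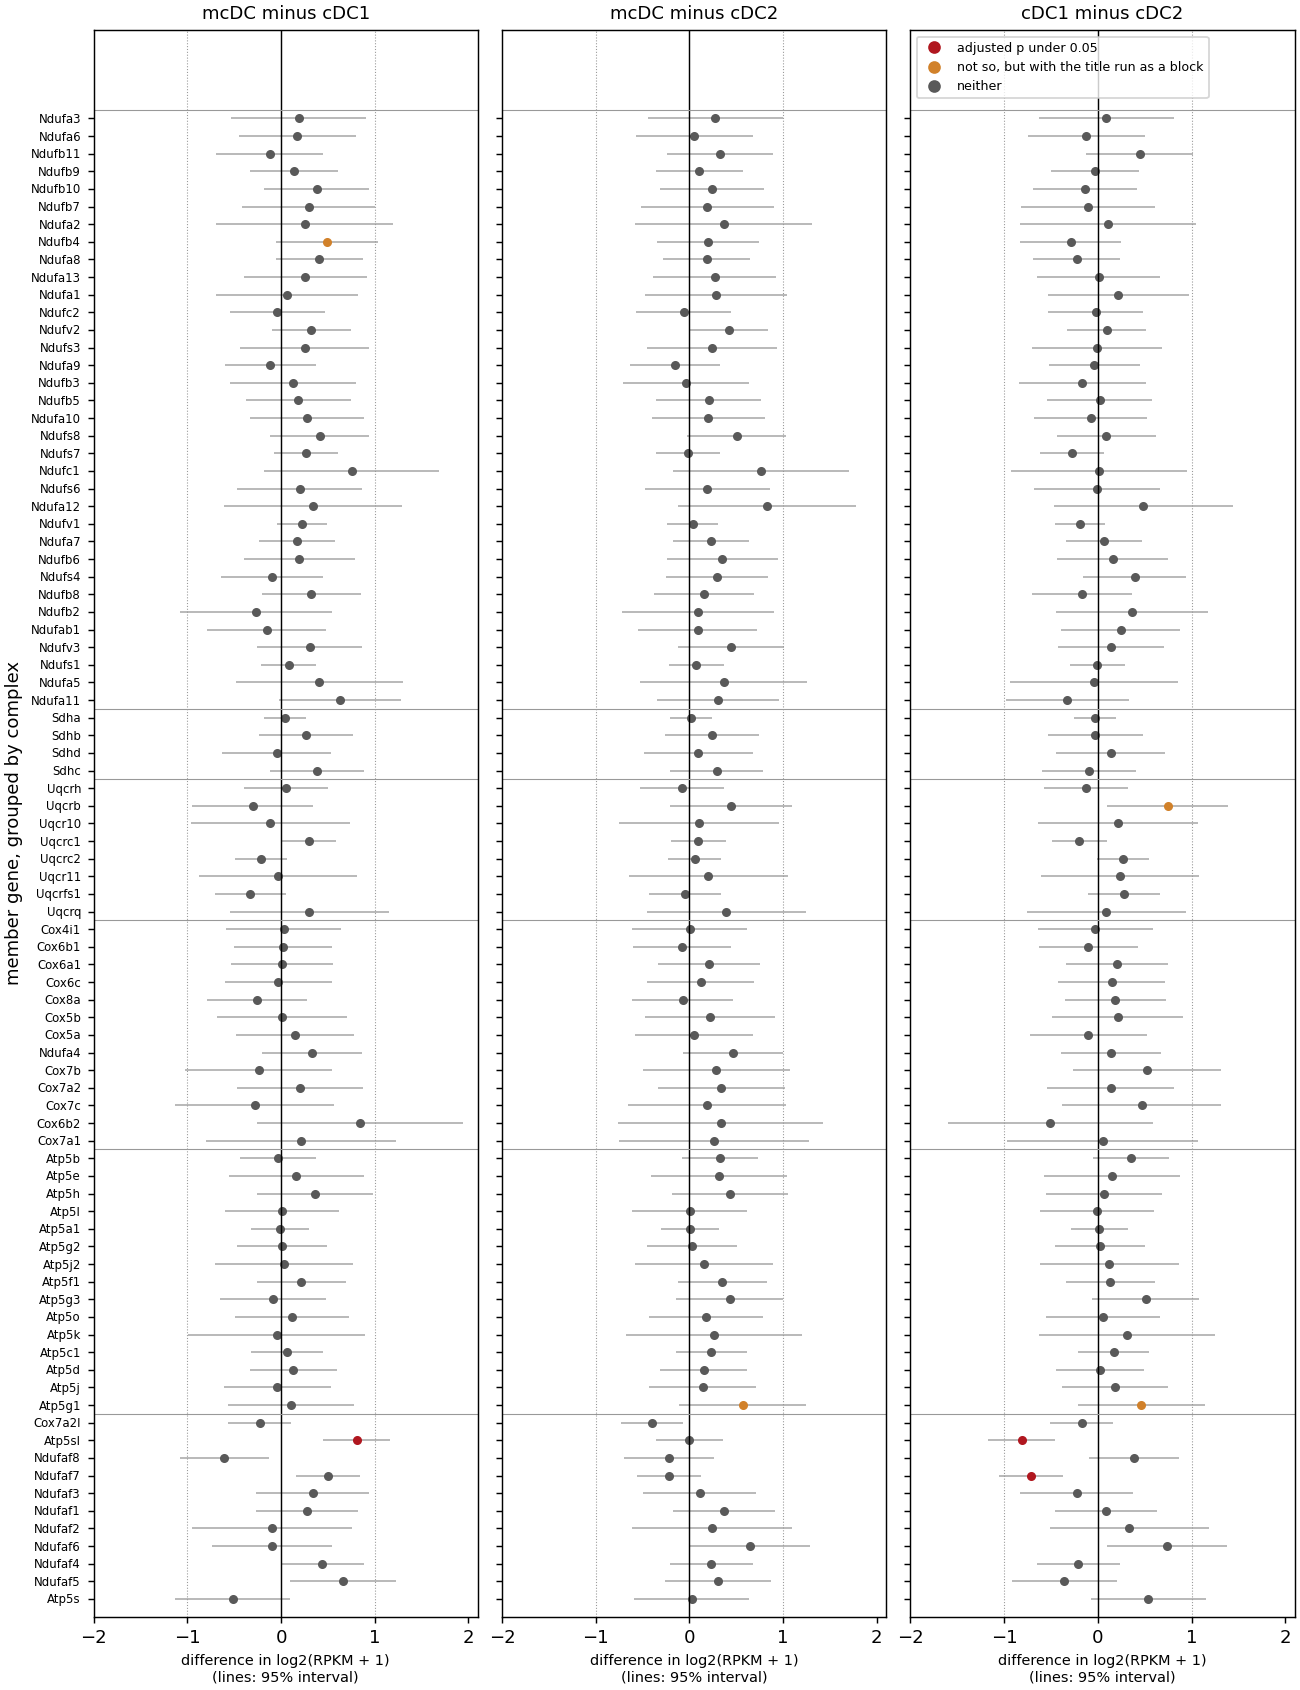
Difference in log2(RPKM + 1) of 85 of the 86 members with its 95% interval in the 3 comparisons, grouped by complex, with dotted lines at a 2-fold change. Red points passed an adjusted p of 0.05 (Atp5sl and Ndufaf7), orange points did not but passed with the title run as a block (Ndufb4, Atp5g1 and Uqcrb), and grey points passed neither of these 2 fits.

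The called members act in the assembly of complex I. Atp5sl (gene 66349), named for its likeness to an ATP synthase gene and known in human cells as DMAC2, an assembly factor for the distal membrane arm of complex I, had 12.7, 12.8 and 13.3 RPKM in cDC1, 27.0, 22.5 and 21.1 RPKM in cDC2, and 26.0, 26.5 and 18.5 RPKM in mcDC. The cDC1 libraries lay close together and below every library of the other subsets. The difference was 0.81 ± 0.16 (SE) for mcDC minus cDC1 with an adjusted p of 0.00826 in limma, and -0.81 ± 0.16 for cDC1 minus cDC2 with 0.00555. Between mcDC and cDC2 it was -0.0035, with a 95% interval of -0.36 to 0.35. Atp5sl stayed below the threshold with each library left out in turn, at adjusted p of 0.000860 to 0.0393 against mcDC and 0.000579 to 0.0281 against cDC2, and missed it with all of title run 1 left out, at 0.0634 and 0.0596.

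Ndufaf7 (gene 73694), a methyltransferase known to act in the early assembly of complex I, had 11.1, 7.96 and 8.28 RPKM in cDC1, 15.5, 14.4 and 16.6 RPKM in cDC2, and 12.6, 14.6 and 12.4 RPKM in mcDC. Every cDC1 library was below every other library, and the mcDC and cDC2 libraries overlapped. It was lower in cDC1 than in cDC2 by a log2 difference of -0.72 ± 0.15 (SE), adjusted p 0.00859 in limma, and missed the threshold with title run 3 left out, at 0.0694. For mcDC minus cDC1 the value was 0.50 ± 0.15 with an adjusted p of 0.0560, which passed at 0.0235 without cDC1 replicate 1 and at 0.0393 without mcDC replicate 3.

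The other assembly and accessory genes had mean levels from 3.16 RPKM for Atp5s, the coupling factor B of ATP synthase, to 248 RPKM for Cox7a2l, listed here with complex IV assembly. Ndufaf8, an assembly factor of complex I, had 15.8, 19.8 and 26.7 RPKM in cDC1, 11.9, 15.6 and 19.2 RPKM in cDC2, and 14.3, 12.7 and 12.2 RPKM in mcDC, with mcDC below cDC1 by -0.60 ± 0.21 and an adjusted p of 0.0899 in limma. This difference passed only without title run 1, at 0.0425, and with the block under median-of-ratios scaling, at 0.0265. Between cDC1 and cDC2 Ndufaf8 passed only with the block and without mcDC replicate 3, at 0.0401. Cox7a2l had 232, 233 and 284 RPKM in cDC1, 277, 273 and 291 RPKM in cDC2, and 189, 195 and 259 RPKM in mcDC. It was the 1 member whose mcDC and cDC2 libraries did not overlap, and its difference of -0.40 ± 0.15 had an adjusted p of 0.203. Without mcDC replicate 3 the Cox7a2l difference was -0.55 with an adjusted p of 0.0398, and with the trend on gene length removed from each library it was -0.55 with 0.00706.

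The title runs were also fitted as a replicate block, since libraries of a run deviated together. With the block, limma called 2 members for mcDC against cDC1 (20.7% of all genes), 1 for mcDC against cDC2 (6.46%) and 4 for cDC1 against cDC2 (24.6%), which added 3 subunits to the calls. Atp5g1 (gene 11951), a c subunit gene, had 34.9, 55.0 and 67.5 RPKM in cDC1, 26.3, 39.2 and 46.9 RPKM in cDC2, and 38.9, 58.8 and 70.7 RPKM in mcDC. In each run the cDC2 library was the lowest of the 3, though the subsets overlapped across runs. The difference was 0.57 for mcDC minus cDC2, with an adjusted p of 0.386 without the block and 0.00839 with it, and 0.46 for cDC1 minus cDC2, with 0.364 and 0.00462.

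Uqcrb (gene 67530), a small subunit of complex III that binds ubiquinone, had 128, 107 and 140 RPKM in cDC1, 56.4, 73.3 and 96.3 RPKM in cDC2, and 62.3, 123 and 132 RPKM in mcDC. The cDC1 libraries lay above all cDC2 libraries, and mcDC overlapped both. The difference of cDC1 from cDC2 was 0.75 ± 0.29 (SE), with an adjusted p of 0.109 in limma, 0.0292 with the block, 0.0200 without mcDC replicate 1, 0.0188 with these subsets fitted alone and 0.00898 with the length trend removed. Of the 9 fits with 1 library left out, only that without mcDC replicate 1 called Uqcrb. Its adjusted p in limma reached 0.329 without cDC2 replicate 1, and was 0.117 and 0.120 without title run 1 and title run 3. Ndufb4 (gene 68194), an accessory subunit in the membrane arm of complex I, had 46.6, 43.2 and 74.5 RPKM in cDC1, 55.3, 68.0 and 73.8 RPKM in cDC2, and 58.0, 74.0 and 98.0 RPKM in mcDC. The mcDC library was the highest of each run, and the difference of mcDC from cDC1 was 0.49 ± 0.24, with an adjusted p of 0.218 without the block and 0.0341 with it. The block call of Ndufb4 was lost under median-of-ratios scaling, at 0.0969, and without mcDC replicate 3, at 0.0618. With the length trend removed and no block the adjusted p of Ndufb4 was 0.0346.

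By complex, the subunits of complex I had a median difference of 0.25 for mcDC minus cDC1, with 29 of 35 positive, and of 0.20 for mcDC minus cDC2, with 31 of 35 positive. Of all genes tested, 60% and 57.9% were positive. Within runs 1 to 3 the complex I mean differed by -0.21, 0.32 and 0.54 from cDC1 and by -0.08, 0.21 and 0.57 from cDC2. The complex I means of mcDC replicates 1 and 2, 5.06 and 5.61, lay on either side of the cDC1 and cDC2 libraries, at 5.15 to 5.58. Over all 86 members the medians for mcDC without mcDC replicate 3 were -0.11 against cDC1 and -0.05 against cDC2. Under median-of-ratios scaling they were 0.0038 and 0.09. The largest complex I value for mcDC minus cDC1 was that of Ndufc1, at 0.75 ± 0.42 with an adjusted p of 0.275. It had 26.7, 41.7 and 107 RPKM in mcDC against 23.5 to 35.6 RPKM in cDC1, so that 1 library carried the difference, which was 0.20 without mcDC replicate 3. The N module, which oxidises NADH, had a median of 0.24 for mcDC minus cDC1 over 8 genes, the Q module, which reduces ubiquinone, 0.26 over 8, and the proton-pumping P module 0.19 over 19. ATP synthase had 15 of 15 differences positive for mcDC minus cDC2, with a median of 0.24, and 14 of 15 positive for cDC1 minus cDC2, with a median of 0.13. The mean difference over the 15 genes for mcDC minus cDC2 was 0.24 as deposited and 0.13 under median-of-ratios scaling. Without mcDC replicate 3 that mean was close to 0. For cDC1 minus cDC2 the mean was 0.17 as deposited, 0.20 under median-of-ratios scaling and 0.05 without cDC2 replicate 1.

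Counts of called members depended on the 2 outer mcDC libraries. Without mcDC replicate 1, limma called 9 members higher than in cDC1 and 7 higher than in cDC2, where 18.1% and 7.56% of all genes were called. The 9 were Ndufs8, Ndufa5, Ndufa11, Ndufv2, Ndufv3, Atp5h, Ndufaf4, Ndufaf5 and Atp5sl. The 7 were Ndufa5, Ndufa12, Ndufv2, Ndufv3, Ndufa4, Atp5b and Atp5g3. Without mcDC replicate 3 the counts were 3 and 1, where 22% and 4.37% of all genes were called. These were Atp5sl and Ndufaf7 higher and Uqcrfs1, the Rieske iron-sulfur protein of complex III, lower than in cDC1 (-0.48, adjusted p 0.0438), and Cox7a2l lower than in cDC2. Between cDC1 and cDC2, 3 members were called without mcDC replicate 1 (22.8% of all genes) and 4 without mcDC replicate 3 (29.4%). With the block and without mcDC replicate 3 the counts were 4, 2 and 12 members for mcDC against cDC1, mcDC against cDC2 and cDC1 against cDC2, where 25.4%, 6.08% and 36.2% of all genes were called. Of the 12, 10 were higher in cDC1 and 2 lower, while 47% of the calls over all genes were higher. With the length trend removed the member counts were 4, 1 and 5, where 17.7%, 4.69% and 22.6% of all genes were called.

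Outside the members, 117 other genes of the pathway were listed and tested. They covered assembly factors, carriers, import, the Krebs cycle, regulators of mitochondrial gene expression, and complex III and ATP synthase subunits missed by the rule. Among the 117, limma called 4 higher and 2 lower in mcDC than in cDC1, and 7 higher and 3 lower in cDC1 than in cDC2. In these comparisons 15.4% and 19.6% of all genes were called. Between mcDC and cDC2 limma called 0, beside 3.66% of all genes, and 0 with voom, beside 3.67%. At an unadjusted p under 0.05 there were 12 of the 117, beside 16.7% of all genes. With the block the calls were 6 higher and 4 lower, 12 higher and 3 lower, and 1 higher in the same order of comparisons. The block called 20.7%, 24.6% and 6.46% of all genes in that order. The median difference of the 117 was 0.07 for mcDC minus cDC1, 0.14 for mcDC minus cDC2 and -0.0067 for cDC1 minus cDC2.

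Among these 117 genes the largest difference of cDC1 from either other subset was that of Mdh2, the malate dehydrogenase of the Krebs cycle that feeds NADH to complex I. It had 210, 168 and 169 RPKM in cDC1, 712, 570 and 540 RPKM in cDC2, and 691, 531 and 556 RPKM in mcDC. The cDC1 libraries were far below all the others, which overlapped each other. The difference was 1.70 ± 0.17 (SE) for mcDC minus cDC1 with an adjusted p of 0.000192 in limma, and -1.73 ± 0.17 for cDC1 minus cDC2 with 8.89e-05. For mcDC minus cDC2 it was -0.03, with a 95% interval of -0.41 to 0.34. The other Krebs cycle calls were between cDC1 and cDC2, with Dlst at -0.43, Pdha1 at -0.79 and Suclg1 at 0.47, and 13 of the 17 genes on the list were not called. In this comparison 19.6% of all genes were called. Dlst and Pdha1 missed the threshold with any cDC1 or cDC2 library left out, and Suclg1 with any of these but cDC1 replicate 1 and also without mcDC replicate 2, with adjusted p up to 0.0913 for Dlst and 0.164 for Pdha1 (both without cDC1 replicate 2) and 0.173 for Suclg1 (without cDC1 replicate 3).

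Coa5, an assembly factor of complex IV, and Tmem70, which is needed to assemble ATP synthase, were higher in cDC1 than in both other subsets. Coa5 had 53.7, 53.5 and 51.2 RPKM in cDC1, 28.5, 29.98 and 30.6 RPKM in cDC2, and 28.0, 38.2 and 29.9 RPKM in mcDC. All cDC1 libraries were above all others. The difference was 0.81 ± 0.13 (SE) for cDC1 minus cDC2 with an adjusted p of 0.00153 in limma, and -0.72 ± 0.13 for mcDC minus cDC1 with 0.00463. Tmem70 had 24.5, 23.2 and 25.6 RPKM in cDC1, 15.2, 15.5 and 14.7 RPKM in cDC2, and 17.6, 15.1 and 17.2 RPKM in mcDC. Again no cDC1 library overlapped another subset. The Tmem70 difference was 0.66 ± 0.11 for cDC1 minus cDC2, adjusted p 0.00253 in limma, and -0.53 ± 0.11 for mcDC minus cDC1, adjusted p 0.0113. The latter missed the threshold in 3 settings, at 0.0542 without cDC1 replicate 3 and at most 0.0593 over all settings.

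Atpif1, the inhibitor of ATP hydrolysis by ATP synthase, had 77.8, 99.1 and 126 RPKM in cDC1, 27.0, 35.8 and 43.5 RPKM in cDC2, and 29.5, 48.4 and 99.8 RPKM in mcDC. The cDC1 libraries were above all cDC2 libraries, and mcDC ran from the level of one to that of the other. The difference of cDC1 from cDC2 was 1.48 ± 0.38 (SE) with an adjusted p of 0.0227 in limma and 0.000911 with the block. It missed the threshold without cDC1 replicate 2 or 3 or cDC2 replicate 1 or 2, at up to 0.0930. For mcDC minus cDC1 the value was -0.91, with an adjusted p of 0.152 without the block and 0.0139 with it.

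**Figure D5:**
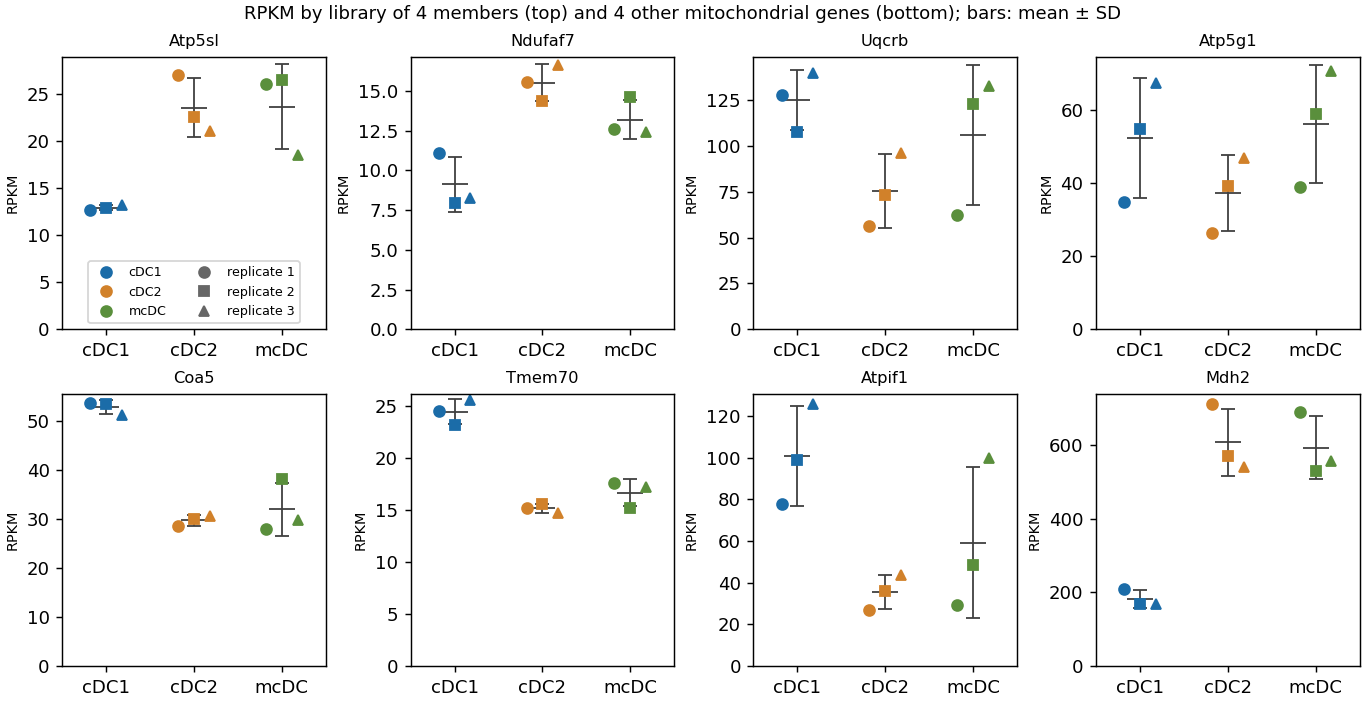
RPKM in each library of 4 members (Atp5sl, Ndufaf7, Uqcrb, Atp5g1) and 4 other mitochondrial genes (Coa5, Tmem70, Atpif1, Mdh2), with colour for the subset, symbol for the replicate and bars for the mean ± SD of 3 libraries. In cDC1 Atp5sl lay at 12.7 to 13.3 RPKM and Mdh2 at 168 to 210 RPKM, below all other libraries, and Coa5 at 51.2 to 53.7 RPKM, above them.

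Fewer genes of the remaining lists were called. Uqcc1, an assembly factor of complex III, was higher in cDC1 (12.0, 14.5 and 14.8 RPKM) than in cDC2 (7.67, 7.77 and 8.79 RPKM), by 0.70 ± 0.13 with an adjusted p of 0.00465 in limma. For mcDC minus cDC1 Uqcc1 had -0.42, with an adjusted p of 0.0627 without the block and 0.0467 with it. Slc25a4, an ADP and ATP carrier, had 0.52 for cDC1 minus cDC2 with an adjusted p of 0.0241, and Mterf2, a mitochondrial transcription termination factor family member, had 0.88 with 0.0357. Each of these lost its call with cDC1 replicate 2 or 3 or any cDC2 library left out, at up to 0.0937 for Slc25a4 and 0.148 for Mterf2. For mcDC minus cDC1, Lrpprc, which stabilises mitochondrial mRNA, had 0.67 (adjusted p 0.0215), Coq5, an enzyme of ubiquinone synthesis, 0.57 (0.0178), and Tmem186, an assembly factor of complex I, 0.75 (0.0409). All 3 missed the threshold under median-of-ratios scaling and without cDC1 replicate 1, cDC1 replicate 2 or mcDC replicate 2. With 1 library left out the adjusted p in limma reached 0.0631 for Lrpprc, 0.0826 for Coq5 and 0.151 for Tmem186. Over all settings the highest were 0.0767, 0.125 and 0.151. Tmem186 also missed the threshold without cDC1 replicate 3 or any cDC2 library. The 25 import genes had 0 calls by limma in each comparison, with 1, 1 and 2 at an unadjusted p under 0.05 for mcDC against cDC1, mcDC against cDC2 and cDC1 against cDC2, 0 with voom, and 1, 1 and 3 with the block. Of all genes, limma called 15.4%, 3.66% and 19.6%, and 29%, 16.7% and 29.8% had an unadjusted p under 0.05. The all-gene shares were 15%, 3.67% and 22% with voom, and 20.7%, 6.46% and 24.6% with the block. The most abundant import gene, Hspe1, a chaperonin of the matrix, had 0.47 ± 0.21 for cDC1 minus cDC2, with an adjusted p of 0.182 without the block and 0.0331 with it. The 4 assembly factors of complex II had 0 calls by limma, 0 at an unadjusted p under 0.05 and 0 with voom in each comparison, and the most abundant, Sdhaf1, had differences of 0.02, -0.08 and -0.10 in the same order of comparisons.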

How the data were processed

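The authors deposited RPKM values of 14862 genes as a table covering the 9 libraries, plus 8 files that each cover 1 library and hold the same values. The replicate 3 library of mcDC had no file of its own among those used here. The unit is not named in the files and was read from the steps between values, which gave whole reads (tolerance 0.01) for 100% of nonzero values. The submitters' processing notes name the genome build mm8. The aligner is not given in the sources used here, nor are the counting tool, its use of strand and the annotation. The labels' protocol names a directional library kit.

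For testing, limma 3.58.1 (R 4.3.3) took log2(RPKM + 1) of all 3 subsets together, its prior variance following mean level. Genes needed more than 1 RPKM in 2 libraries or more, which 11971 did. Benjamini-Hochberg adjustment covered every gene tested, and the threshold was 0.05. Log2 differences understate the change of low genes. The members and lists were chosen with earlier results of these data known. Named genes were the most abundant of each complex, the Sdh genes, the isoform pairs, called members, and up to 3 called genes of each pathway list, or the most abundant gene of a list with none. Genes named for a call under another setting, the c subunit shares and other examples were chosen after their values were seen.

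Runs of consecutive titles served as pairs, although what such a run has in common is not stated. Library deviations around their subset mean correlated at 0.118 to 0.613 in the 9 pairs of the same run over 7149 genes with a mean log2(RPKM + 1) above 3, and 9 of 9 libraries correlated best with their own run. Over 8358 genes with a mean above 5 RPKM the lowest pair was 0.0713. No replicate pair was a repeat of 1 library: chi-square divided by degrees of freedom ran from 10.4 to 65.8.

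On simulated data with changed genes, the test recovered 48% of 2-fold and 94% of 4-fold changes for mcDC against cDC1 over 11756 genes, 65% and 97% for mcDC against cDC2 over 11735 genes, and 53% and 90% for cDC1 against cDC2 over 11725 genes. False calls were 5.33%, 3.57% and 4.03%. The changed genes were drawn from all genes with a mean of at least 5 RPKM. Noise was drawn separately for each gene and library, without the spread shared by libraries of a run. The members' median SE was 0.254 in each comparison, against 0.209 for all genes tested, and recovery among the members was not measured. The alternatives are those named in the closing section. Removal of the trend on gene length, the block with median-of-ratios scaling and leaving out a whole title run were added after the data were seen. Python 3.11.15 with pandas 2.3.3 and matplotlib 3.10.9 served for tables and figures. Values of 1 member and 1 marker are not reported here by name.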

Additional observations from a re-analysis of the deposited data

How the results depend on the processing

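The count of called members was 1 for mcDC against cDC1, 0 for mcDC against cDC2 and 2 for cDC1 against cDC2. Leaving out 1 library at a time gave 1 to 9, 0 to 7 and 2 to 4. The replicate block gave 2, 1 and 4, the block without mcDC replicate 3 gave 4, 2 and 12, and the block with median-of-ratios scaling 4, 2 and 6 (20.2%, 6.88% and 25% of all genes called). Removing the length trend gave 4, 1 and 5, and with the block 4, 2 and 11 (21.7%, 7.43% and 26.7%). Without title run 1 the counts were 2, 1 and 1 (12.1%, 3.32% and 16.2%), and without title run 3 they were 1, 0 and 1 (13%, 1.09% and 17.4%). A filter of 5 RPKM gave 2 for mcDC against cDC1 (17.3%), and fitting the compared subsets alone gave 10 for cDC1 against cDC2 (32.4%). Of these 10, 8 were higher in cDC1 and 2 lower. In the same comparison the block without mcDC replicate 3 gave 10 higher and 2 lower. Length trend removal with the block gave 9 higher and 2 lower. Of all genes called in these 3 fits, 47.1%, 47% and 48.7% were higher in cDC1. The cause of these shifts was not tested. Quantile normalization, median-of-ratios scaling, a pseudocount of 0.1, no filter, no trend and voom on recovered reads kept each count within 1.5 times. No called gene changed sign under any of these settings. The replicate block by itself changed no other call of a named member than those given in the report. Its variants changed more. With median-of-ratios scaling added to the block, the limma calls included Ndufaf8, Cox7a2l and Uqcrfs1, all lower in mcDC than in cDC1. Their adjusted p were 0.0265, 0.0291 and 0.0190. With 3 libraries a subset and 5.14 to 5.56 M reads in the shallower mcDC libraries, 48% to 65% of simulated 2-fold changes were recovered, so a difference that was not called may have been below what could be detected.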

Other observations

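Other cells' markers differed between the subsets as well. The summed RPKM of 9 NK cell markers was 112 to 179 in cDC1, 219 to 260 in cDC2 and 267 to 454 in mcDC. That of 9 neutrophil markers was 14.9 to 41.2 in cDC1, 192, 964 and 1612 in cDC2 replicates 1 to 3, and 40.7 to 49.2 in mcDC, with Retnlg, Camp and Ltf at 0 in at least 1 library. The monocyte markers summed to 158 to 264 RPKM in cDC1, 1085 to 2130 RPKM in cDC2 and 487 to 630 RPKM in mcDC. Their part in the members' values was not tested.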
